A study of Mus musculus with 18 samples.

Results

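The effect of testosterone on RNA levels was compared gene by gene between 2 exocrine glands, the lacrimal and the submandibular, in male BALB/c mice. All lacrimal and submandibular arrays of the series were used, which are 12 of its 18 arrays, and they form 4 groups: lacrimal gland with placebo, lacrimal gland with testosterone, submandibular gland with placebo and submandibular gland with testosterone. All mice were orchiectomised, placebo groups included, and the placebo or testosterone came from a hormone pellet worn for 21 days. Each group had 3 arrays, named A, B and C, and each array held RNA of a separate pool of 10 glands from 5 mice, while another label entry puts the number at 4 a sex in each experiment. The age of the mice is not given in the labels. A pool averages its mice, so the spread between pools is smaller than that between mice, and in whole glands fewer cells of a type and less RNA per cell cannot be told apart.

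Testosterone is a steroid hormone, and receptors of steroid hormones are transcription factors that attach to DNA at paired hexamer sites and change the transcription of nearby genes. Lacrimal acinar cells secrete the aqueous layer of tears with proteins such as lactoperoxidase and lactoferrin. In the submandibular gland, a salivary gland of the mouse, androgens enlarge the granular convoluted ducts, which make epidermal growth factor and kallikreins. In both glands myoepithelial cells, which have the contractile proteins of smooth muscle, wrap the acini.

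The values are probe intensities scaled to an array median between 0.9325 and 0.9525. Of 10500 probes 7090 could be tested. Changes below are differences of log2(intensity + 0.2489) between testosterone and placebo, so changes of dim probes are understated. The difference between glands is the lacrimal change minus the submandibular change. The ± of a change or difference is limma's SE, with 3 pools a group. It rests on the probe's variance within all 4 groups of both glands, moderated towards that of probes of like brightness. A change or difference is called where limma's Benjamini-Hochberg adjusted p was under 0.05. Intensities are given for pools A, B and C in that order, or as the mean ± SD (n = 3). They allow levels of 1 probe to be set against each other, not those of different probes. Pools of a group had Spearman correlations between 0.9013 and 0.9779, and the number of arrays limits the precision.

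The gland labels matched most of the markers measured, but not the lacrimal marker Lcn4. Its placebo intensity was 1.201 ± 0.216 in the lacrimal gland and 1.475 ± 0.296 in the submandibular gland, with overlapping pools. Of the lacrimal markers 8 of 13 were tested, and Ltf, the gene of lactoferrin, had 79.4 ± 4.29 in placebo lacrimal gland against 0.511 ± 0.233 in placebo submandibular gland. Of the submandibular markers 4 of 15 were tested, and Klk1b5, a duct kallikrein, had 687 ± 49.7 in the submandibular against 5.25 ± 8.17 in the lacrimal placebo group. The lacrimal markers Scgb1b2 and Lpo were also bright in the submandibular gland, with 451 ± 14.2 and 150.03 ± 14.0 on placebo against 1001 ± 35.7 and 493 ± 35.2 in the lacrimal gland. The brightest lacrimal probes were dimmer on the testosterone arrays: the maximum of an array was 976.8 to 1042 on placebo and 597.5 to 930.5 on testosterone. In the top brightness decile of the tested probes the median change was -0.18 in the lacrimal gland and 0.09 in the submandibular one, against -0.06 and 0.01 over all of them.

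Testosterone changed more probes in the lacrimal than in the submandibular gland, and most changes were not shared. In the lacrimal gland 1682 probes (23.7%) were called, 830 higher (11.7%) and 852 lower (12%). In the submandibular gland 663 (9.35%) were called, 439 higher (6.19%) and 224 lower (3.16%). The 2 effects themselves differed for 1357 probes (19.1%), with the lacrimal change above the submandibular one for 583 (8.22%) and below it for 774 (10.9%). Of these 846 differed by at least 2-fold. The submandibular count depended on single pools: it was 428 without placebo pool B, 441 without placebo pool C, 418 without testosterone pool A and 436 without testosterone pool C. It was 439 with each gland fitted alone and 1053 with all 18 arrays of the series in the fit.

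Only 262 probes were called in both glands, which is 15.6% of the lacrimal and 39.5% of the submandibular calls. Of the 165 that moved the same way, 108 rose and 57 fell, and for 121 of them no difference in size was called. The other 97 moved in opposite directions, 33 up in the lacrimal gland and down in the submandibular one and 64 the other way round. These 97 were 60 without submandibular placebo pool B, 61 without placebo pool C, 52 without testosterone pool A and 62 without testosterone pool C. The 33 were 16 to 21 without any one of submandibular placebo pools B and C and testosterone pools A, B and C, and the 64 were 39, 34 and 42 without placebo pool B, testosterone pool A and testosterone pool C. Probes that rose in the submandibular gland were among the lacrimal rises in 24.6% and among the lacrimal falls in 14.6% of cases, set against 11.7% and 12% of all tested probes. Those that fell in the submandibular gland were among the lacrimal falls in 25.4% and among the lacrimal rises in 14.7% of cases. Across all tested probes Pearson's r between the 2 glands' changes was 0.10 and Spearman's rho 0.05, where probes are not independent replicates.

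A response is assigned to a single gland here only where that gland's change was called, the other gland's was not, and the difference between them was called. By this rule 410 probes rose and 407 fell in the lacrimal gland alone, and 177 rose and 68 fell in the submandibular gland alone. A further 603 lacrimal and 156 submandibular calls were not called in the other gland and had no called difference, so these data do not place them. For 154 probes the difference was called with neither gland's change called.

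**Figure D1:**
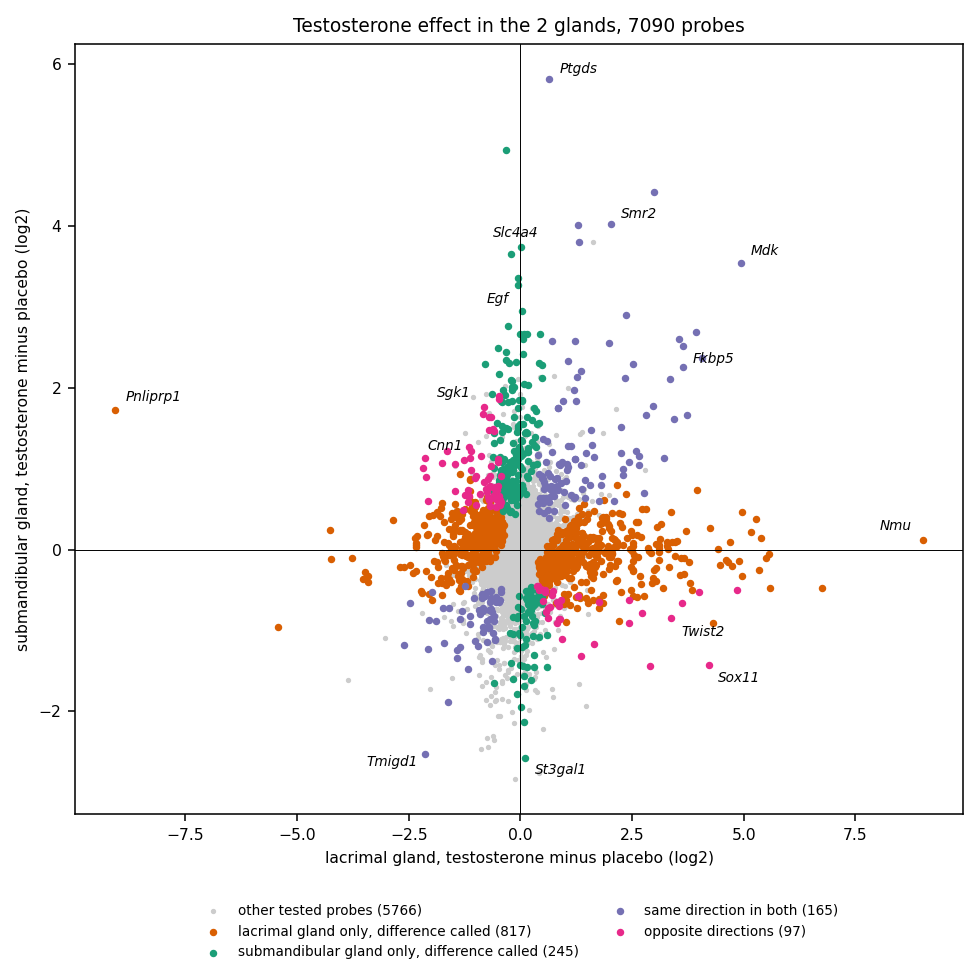
Each point is 1 of 7090 tested probes, with the log2 change (testosterone minus placebo) in the lacrimal gland on the x axis and in the submandibular gland on the y axis. Orange points lie along the horizontal axis (817 probes changed in the lacrimal gland alone), green points along the vertical axis (245 in the submandibular gland alone), violet points where both signs are the same (165) and pink points where they are opposite (97).

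Among the rises seen in the lacrimal gland alone, the largest was that of Nmu, the gene of the peptide neuromedin U. Its intensities were 0.407, 0.326 and 0.344 in lacrimal placebo pools and 414, 300.4 and 247 in lacrimal testosterone pools, but 0.235, 0.230 and 0.265 and 0.328, 0.300 and 0.237 in the submandibular gland. Every lacrimal testosterone pool lay far above the other 9 pools, which were all near the dim end of the array. The lacrimal change was 9.01 ± 0.17 (adjusted p = 2.67e-11), the submandibular change 0.12 ± 0.17 (adjusted p = 0.724), and the difference 8.89 ± 0.25 (adjusted p = 1.61e-09).

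Ptch1, which encodes the receptor for hedgehog ligands, differed in another way, because the submandibular gland had it on placebo. It went from 0.905, 1.02 and 0.932 to 61.9, 49.4 and 61.0 in the lacrimal gland, and from 9.57, 9.43 and 17.1 to 8.31, 8.32 and 8.06 in the submandibular gland. Lacrimal pools thus stood below all submandibular pools on placebo and above them on testosterone. The difference between the changes was 6.06 ± 0.28 (adjusted p = 6.55e-08).

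Other large lacrimal rises were of genes with unlike roles. Rsph6a, which encodes a radial spoke protein of cilia and sperm tails, changed by 6.76 ± 0.15, and Stag3, a subunit of the meiotic cohesin, by 4.95 ± 0.19. Trpm5, a cation channel known from taste cells, changed by 5.50 ± 0.18, and Ddc, the decarboxylase that makes dopamine and serotonin, by 5.35 ± 0.23. Cyp4a12a, a fatty acid hydroxylase, changed by 5.56 ± 0.30, Pgc, the precursor of a pepsin, by 4.31 ± 0.51, and Acsbg1, an acyl-CoA synthetase, by 4.25 ± 0.31. Chst2, which adds sulfate to N-acetylglucosamine, was already measurable in the lacrimal gland on placebo (11.2, 12.7 and 7.67) and reached 355, 286 and 222. In the submandibular gland none of these 8 genes was called by limma, with changes between -0.91 for Pgc and 0.27 for Acsbg1.

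The signalling genes that rose in the lacrimal gland alone included 3 growth regulators. Fst, the activin antagonist follistatin, went from 0.320, 0.437 and 0.669 to 6.06, 5.17 and 5.93, Bmp6 from 0.369, 0.228 and 0.338 to 5.46, 4.05 and 4.14, and Pgf, placental growth factor, from 0.590, 1.17 and 0.901 to 12.6, 9.07 and 12.7. Their lacrimal changes were 3.07 ± 0.21, 3.09 ± 0.16 and 3.38 ± 0.22, and their differences between glands 2.78 ± 0.29, 3.12 ± 0.22 and 2.92 ± 0.32 (adjusted p = 4.58e-05, 2.35e-06 and 5.49e-05). Submandibular pools of both treatments stayed at or below 0.953 for these 3 genes, so all lacrimal testosterone pools were higher than all others.

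Among the falls in the lacrimal gland alone, Pnliprp1, a relative of pancreatic lipase, had the largest. It was 567, 516 and 489.7 on placebo and 0.362, 2.40 and 0.327 on testosterone in the lacrimal gland, a change of -9.07 ± 0.97 (adjusted p = 2.65e-05). In the submandibular gland it was 16.9, 1.09 and 40.4 on placebo and 32.3, 31.4 and 32.1 on testosterone, so the placebo pools there were widely scattered and overlapped the testosterone pools. The difference was -10.79 ± 1.37 (adjusted p = 1.83e-04).

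Phyh, the peroxisomal enzyme that starts phytanic acid breakdown, fell from 427, 426 and 419.9 to 33.9, 46.5 and 34.7 in the lacrimal gland and was 27.2, 26.4 and 29.8 and 21.9, 20.9 and 26.3 in the submandibular gland. With testosterone the lacrimal level came close to the submandibular one, and the difference between changes was -3.20 ± 0.20 (adjusted p = 6.79e-07). Adh1, an alcohol dehydrogenase, did likewise, from 116, 163 and 165 to 13.0, 9.29 and 9.70 against 6.41, 4.52 and 7.40 and 5.78, 5.76 and 5.15. Asgr1, the asialoglycoprotein receptor, changed by -5.43 ± 0.69 in the lacrimal gland, Pllp, a membrane protein of myelin, by -4.27 ± 0.41, and Tenm3, a teneurin, by -4.24 ± 0.20. Snap91, a clathrin assembly protein, changed by -3.52 ± 0.22 and Retnla, a resistin-like secreted protein, by -2.85 ± 0.23. The secreted innate defence protein Dmbt1 fell from 24.0, 15.6 and 20.2 to 4.44, 3.47 and 3.27, while the submandibular pools lay between 0.751 and 1.17.

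In the submandibular gland alone, Egf, the gene of epidermal growth factor, rose from 33.7, 38.2 and 33.9 to 289.7, 261 and 268, a change of 2.94 ± 0.21 (adjusted p = 3.52e-06). In the lacrimal gland it was 4.92, 3.30 and 2.24 on placebo and 3.64, 3.49 and 3.14 on testosterone, with overlapping pools and a change of 0.04 ± 0.21 (95% interval -0.42 to 0.49). The difference was -2.91 ± 0.29 (adjusted p = 3.17e-05). Of 8 granular duct products tested, 2 rose and 1 fell in the submandibular gland and 1 rose in the lacrimal gland, with medians of -0.24 and 0.02. Among all tested probes 6.19% rose and 3.16% fell in the submandibular gland and 11.7% rose in the lacrimal gland, so the lacrimal rise was near the background. Klk1b5 had 509 ± 54.4 in the submandibular gland on testosterone, a change of -0.44 ± 1.14 that was not called, although pools of the treatments did not overlap there: the SE also takes in the scattered lacrimal pools (14.7, 0.579 and 0.487 on placebo). Slc4a4, the sodium bicarbonate cotransporter of the basolateral membrane, rose from 1.36, 0.912 and 0.895 to 16.2, 15.1 and 20.1, while its lacrimal pools stayed between 0.296 and 0.648. The difference for Slc4a4 was -3.74 ± 0.32 (adjusted p = 7.91e-06).

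Other submandibular rises were mostly of genes with dim probes on placebo. Klrg2, a lectin-like receptor, was 0.211, 0.560 and 0.260 on placebo and 6.37, 3.9003 and 7.13 on testosterone, and Kcne3, a potassium channel subunit, 0.221, 0.203 and 0.298 and 2.73, 1.80 and 2.78. Tmem37 changed by 3.27 ± 0.24, Sgca, the muscle membrane protein alpha-sarcoglycan, by 2.77 ± 0.19, A26c3 by 2.50 ± 0.19 and Nlrp4c, which was brighter on placebo (12.6, 16.6 and 3.73), by 2.34 ± 0.41. Hsd17b3, the enzyme that makes testosterone from androstenedione, changed by 2.16 ± 0.28, with a difference of -2.64 ± 0.40 (adjusted p = 7.09e-04). The highest lacrimal pool of these genes had 1.81, for A26c3.

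Most genes that fell in the submandibular gland alone had the higher placebo level there. This was not tested, because the fall and the placebo level share the placebo pools, and a probe dim on placebo has little room to fall. St3gal1, a sialyltransferase of O-linked glycans, fell from 11.4, 9.45 and 13.2 to 1.16, 2.25 and 1.78 and was 0.635, 0.759 and 0.958 and 0.645, 0.754 and 1.26 in the lacrimal gland. Fabp5, a fatty acid binding protein, fell from 25.7, 22.6 and 25.4 to 7.73, 8.07 and 7.82, against 2.45, 2.22 and 1.90 and 3.28, 2.46 and 2.22. In both cases testosterone brought the submandibular level towards the lacrimal one, with differences of 2.69 ± 0.35 and 1.85 ± 0.21 (adjusted p = 2.22e-04 and 6.96e-05). Psca, a surface antigen of epithelia, changed by -2.13 ± 0.31, the mucin-like Mucl1 by -1.94 ± 0.16, Hilpda, a lipid droplet protein, by -1.79 ± 0.17, and the sugar phosphate exchanger Slc37a2 by -1.68 ± 0.16. Tmem236 and the acetyltransferase Nat8f1 changed by -1.45 ± 0.33 and -1.45 ± 0.18. The lacrimal changes of these 6 genes, from -0.08 for Hilpda to 0.59 for Tmem236, were not called.

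**Figure D2:**
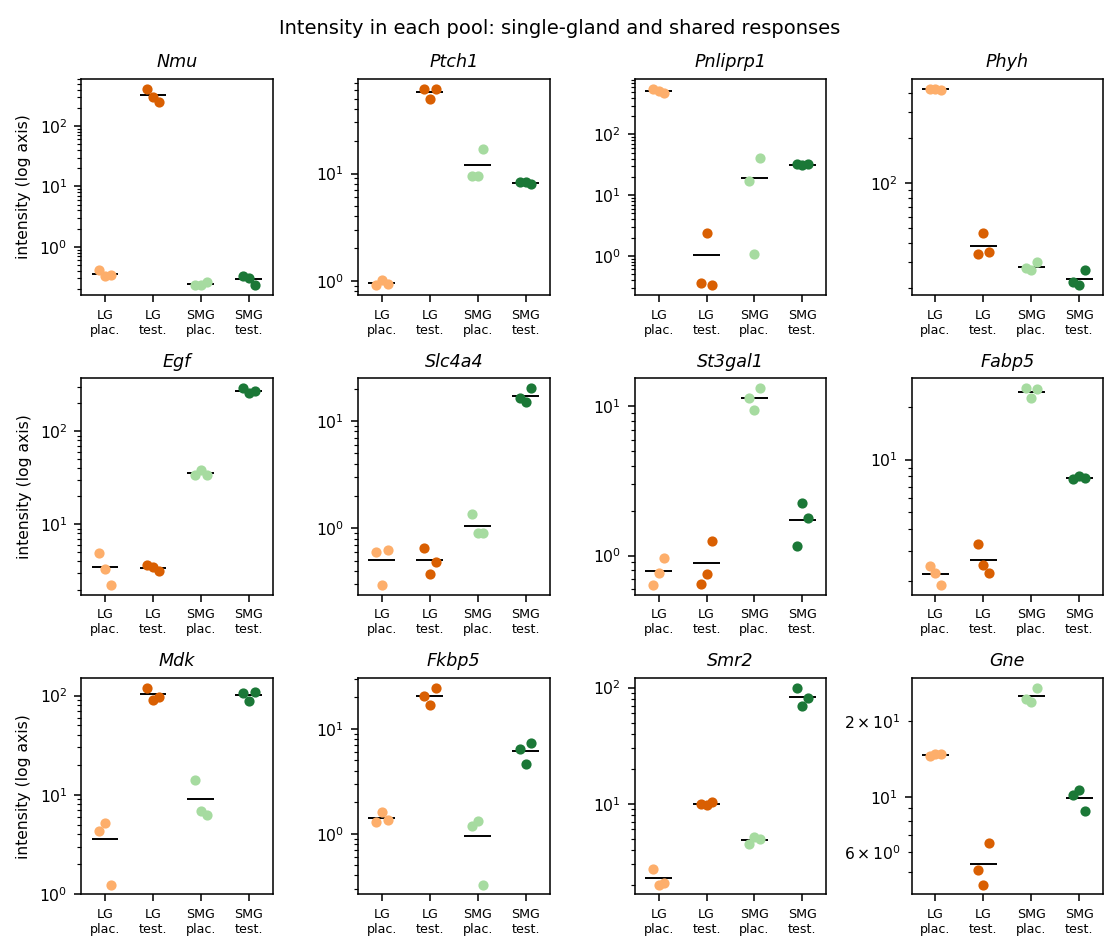
Intensity on a log axis in each of the 12 pools (points) with the group mean (bar), for lacrimal gland (LG) and submandibular gland (SMG) on placebo or testosterone. Nmu and Ptch1 were higher, and Pnliprp1 and Phyh lower, in lacrimal testosterone pools. Egf and Slc4a4 were higher, and St3gal1 and Fabp5 lower, in submandibular testosterone pools, while Mdk, Fkbp5 and Smr2 rose and Gne fell in both glands.

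The shared rises had members from hormone signalling, lipid handling and secretion. Fkbp5, which encodes a co-chaperone of steroid receptors and is a classical androgen target, went from 1.30, 1.62 and 1.35 to 20.7, 16.9 and 24.6 in the lacrimal and from 1.19, 1.33 and 0.327 to 6.40, 4.65 and 7.31 in the submandibular gland. The changes were 3.64 ± 0.33 and 2.52 ± 0.33 (adjusted p = 6.22e-06 and 4.22e-04), and testosterone pools were above placebo pools in both glands, which the rule for naming shared rises required. Their difference was 1.13 ± 0.46 with an unadjusted 95% interval of 0.12 to 2.13 (adjusted p = 0.115), so a difference in size was not called. It was called without submandibular placebo pool C and with an offset 4-fold larger.

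Mdk, the heparin-binding growth factor midkine, went from 4.33, 5.19 and 1.24 to 119.6, 90.8 and 97.6 in the lacrimal gland and from 14.0, 6.80 and 6.31 to 107, 89.3 and 108 in the submandibular gland. The testosterone pools of the glands reached similar levels, and the changes were 4.94 ± 0.42 and 3.54 ± 0.42 (adjusted p = 3.87e-06 and 2.15e-04). For Mdk the difference was 1.39 ± 0.59, with an unadjusted 95% interval of 0.09 to 2.69 (adjusted p = 0.129). Epha4, an ephrin receptor, changed by 3.92 ± 0.15 and 2.69 ± 0.15, and the mesoderm transcription factor Mesp2 by 3.36 ± 0.14 and 2.11 ± 0.14, both with a called difference (adjusted p = 0.00202 and 7.23e-04).

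Lipid and transport genes among the shared rises were Abhd5, the co-activator of adipose triglyceride lipase, with 2.53 ± 0.13 in the lacrimal gland and 2.29 ± 0.13 in the submandibular one, and Slc27a2, a fatty acid transporter, with 3.56 ± 0.25 and 2.60 ± 0.25. Slc17a6, a vesicular glutamate transporter, changed by 2.34 ± 0.20 and 2.12 ± 0.20. The plasma protein genes Ttr, transthyretin, and Serpina1d, an alpha-1-antitrypsin, changed by 2.36 ± 0.17 and 1.99 ± 0.28 in the lacrimal gland and by 2.89 ± 0.17 and 2.55 ± 0.28 in the submandibular gland. The unnamed transcript 2310057J18Rik changed by 3.63 ± 0.51 and 2.25 ± 0.51, with the wide errors of scattered pools. No difference was called for these 6 genes, although Slc27a2 gained the call under 5 alternatives and Ttr under 1.

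Of the 44 shared responses with a called difference, 30 were larger in the lacrimal gland and 14 in the submandibular one. Ptgds, the prostaglandin D2 synthase, had the largest difference among the shared rises: it was 0.709, 0.884 and 0.637 and 1.63, 1.12 and 1.19 in the lacrimal gland, and 0.456, 0.417 and 0.551 and 47.9, 32.2 and 42.6 in the submandibular gland. The changes of Ptgds were 0.65 ± 0.18 and 5.82 ± 0.18, and the difference -5.16 ± 0.26 (adjusted p = 1.33e-07). Sult1e1, which sulfates oestrogens, went from 6.38, 6.83 and 5.98 to 114, 76.3 and 138 in the submandibular gland and from 0.386, 0.423 and 0.431 to 2.33, 1.04 and 1.02 in the lacrimal gland. Cyp2b10, a drug-metabolising P450, changed by 1.31 ± 0.23 and 3.80 ± 0.23, and Smr2, a salivary protein of the submandibular ducts, by 2.04 ± 0.15 and 4.02 ± 0.15. By contrast B4galt6, a lactosylceramide synthase, rose more in the lacrimal gland (3.22 ± 0.16 against 1.13 ± 0.16).

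Fewer probes fell than rose in both glands, 57 against 108. Tmigd1, a membrane protein of epithelia, went from 12.6, 12.7 and 16.8 to 3.45, 2.80 and 2.70 in the lacrimal and from 29.1, 20.2 and 22.4 to 4.53, 6.19 and 2.03 in the submandibular gland, changes of -2.14 ± 0.31 and -2.53 ± 0.31. Ctrb1, a chymotrypsinogen, changed by -1.62 ± 0.17 and -1.88 ± 0.17. Gne, the first enzyme of sialic acid synthesis, went from 14.5, 14.8 and 14.7 to 5.11, 4.46 and 6.54 and from 24.6, 23.9 and 27.2 to 10.1, 10.7 and 8.75, with no overlap of treatments in either gland, which the rule for naming shared falls required. The difference for Gne was -0.09 ± 0.20, with a 95% interval of -0.53 to 0.34. Bri3, a lysosomal membrane protein, changed by -1.17 ± 0.17 and -1.48 ± 0.17, the carboxylesterase Ces1e by -1.34 ± 0.20 and -1.20 ± 0.20, and the mitochondrial phosphatase Ppm1k by -1.42 ± 0.30 and -1.24 ± 0.30. The histone gene H4c9 fell more in the lacrimal gland (-2.61 ± 0.15 against -1.17 ± 0.15), as did Sema6c, a semaphorin (-2.06 ± 0.18 against -1.23 ± 0.18), although the difference for Sema6c lost its call under 14 of 28 alternatives.

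Many genes of smooth muscle and myoepithelial contraction fell in the lacrimal gland and rose in the submandibular gland. Of 14 tested probes of this list, 8 fell and 1 rose in the lacrimal gland, 8 rose and none fell in the submandibular gland, and 6 did both. The median change was -0.55 in the lacrimal gland and 0.64 in the submandibular one, against -0.05 and 0.01 over all tested probes with 1 gene symbol. The difference was called below 0 for 8 and above 0 for none, where 10.9% of all tested probes were called lower. In the lacrimal gland 12% of all tested probes fell, and in the submandibular gland 6.19% rose. A filter at the array median kept 9 of the probes, of which 5 were opposite. Without submandibular placebo pool C or testosterone pool A, 5 rather than 8 rose in the submandibular gland.

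Cnn1, the actin-binding calponin, went from 11.8, 10.5 and 12.011 to 5.15, 5.72 and 4.43 in the lacrimal gland and from 32.2, 32.4 and 37.0 to 70.1, 72.4 and 80.7 in the submandibular gland. Each treatment was apart from the other in both glands, and the changes of -1.13 ± 0.12 and 1.13 ± 0.12 differed by -2.26 ± 0.17 (adjusted p = 3.70e-06). Acta2, smooth muscle actin, went from 5.49, 4.82 and 5.38 to 1.63, 2.87 and 2.53 and from 12.2, 17.7 and 18.2 to 34.2, 25.4 and 36.0. Myh11, the smooth muscle myosin heavy chain, changed by -1.26 ± 0.19 and 1.11 ± 0.19, and Tagln, transgelin, by -0.65 ± 0.15 and 1.64 ± 0.15. The other opposite members, named after their values were seen, were the adhesion molecule Mcam (-0.57 and 0.63) and smoothelin, Smtn (-0.73 and 0.64). Tpm2, a tropomyosin, rose in both (0.50 and 0.64), and Srf, the transcription factor of contractile genes, fell in the lacrimal gland (-0.52) with 0.27, not called, in the submandibular gland.

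Summed over the 14 probes, the list's intensity ran from 33.17 to 39.76 in lacrimal placebo, 20.76 to 22.98 in lacrimal testosterone, 76.87 to 84.33 in submandibular placebo and 154.1 to 172.8 in submandibular testosterone pools. These genes mark vascular smooth muscle as well as myoepithelium, and the part of cell numbers in the result was not tested. Endothelial genes, as another marker of vessels, had 1 of 18 probes called in the lacrimal gland, lower, and none in the submandibular gland by limma, with medians of -0.29 and -0.08. Among all tested probes 12% fell in the lacrimal gland, and 6.19% rose and 3.16% fell in the submandibular gland. The endothelial probes were dim, with a median intensity of 0.8165 against 2.456 over all tested probes with 1 gene symbol. A change of the vessels was not tested.

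Matrix and fibroblast genes were called mostly higher in the submandibular and mostly lower in the lacrimal gland. Of 47 tested probes, 18 rose and 1 fell in the submandibular gland, 3 rose and 11 fell in the lacrimal gland, and 15 had a called difference, all below 0. Of all tested probes 6.19% rose and 3.16% fell in the submandibular gland, 11.7% rose and 12% fell in the lacrimal gland, and 10.9% had a difference below 0, so the 3 lacrimal rises were under the background. The 18 were 11 without submandibular testosterone pool A, and the 3 were 0 without lacrimal placebo pool B and 1 without placebo pool C or testosterone pool A. Opposite calls were made for 4 of them. Mgp, an inhibitor of calcification, went from 3.64, 3.33 and 4.14 to 1.71, 1.41 and 1.46 in the lacrimal and from 10.8, 9.97 and 9.52 to 24.0, 27.4 and 22.8 in the submandibular gland, a difference of -2.42 ± 0.18 (adjusted p = 2.73e-06). Postn, periostin, changed by -1.10 ± 0.21 and 1.22 ± 0.21, and Timp3, a metalloproteinase inhibitor, by -0.71 ± 0.13 and 1.48 ± 0.13. The laminin subunit Lama2, named after its values were seen, was the remaining opposite member, with -0.81 and 0.83. Sparcl1, a matricellular protein, fell in the lacrimal gland alone (-1.47 ± 0.12). The collagens Col1a1 and Col1a2, also named after their values were seen, rose in the submandibular gland (0.87 and 0.91) and had 0.04 and 0.37, not called, in the lacrimal gland, and no difference was called for them.

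**Figure D3:**
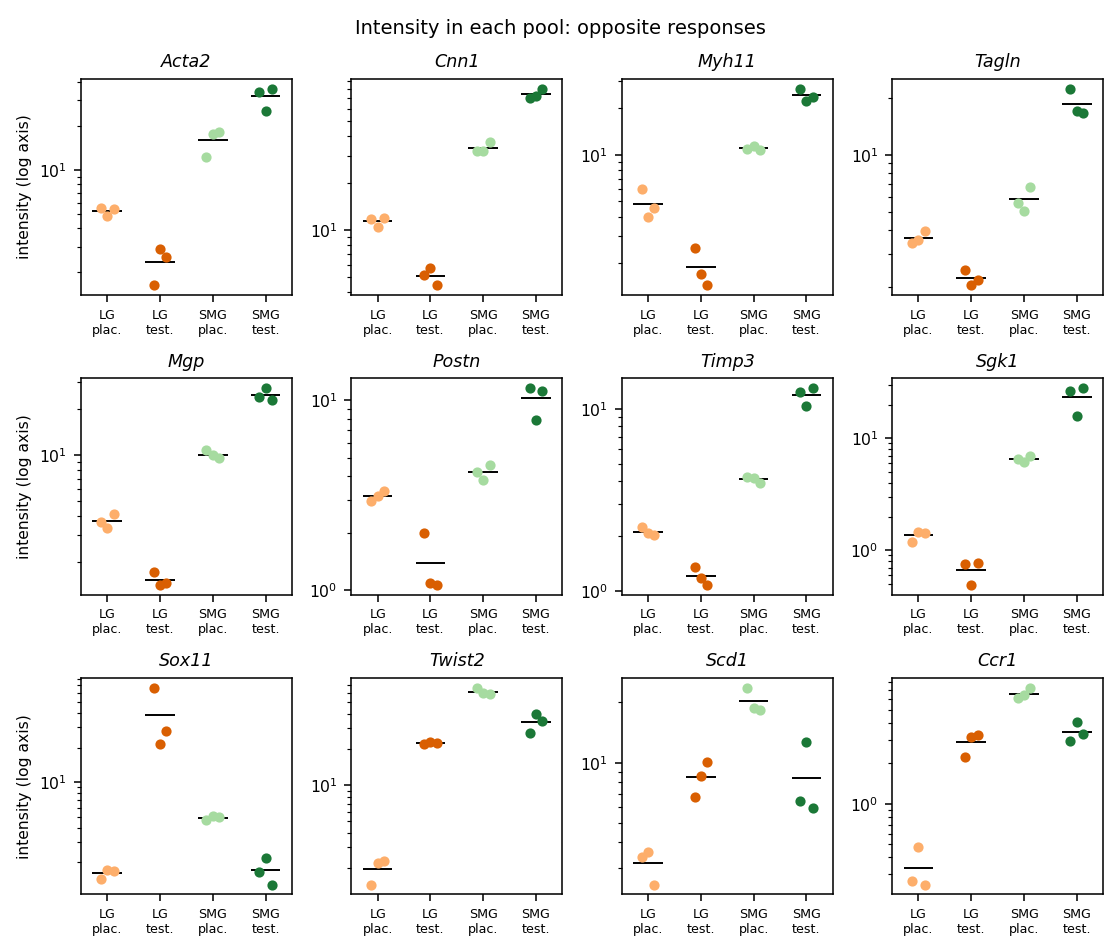
Intensity on a log axis in each of the 12 pools (points) with the group mean (bar), for lacrimal gland (LG) and submandibular gland (SMG) on placebo or testosterone. In the first 8 panels testosterone pools were lower in the lacrimal gland and higher in the submandibular one, and in the last 4 panels, from Sox11 to Ccr1, they were higher in the lacrimal gland and lower in the submandibular one.

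Sgk1, a kinase that controls sodium transport and is a known target of steroid receptors, also moved in opposite directions. It went from 1.17, 1.46 and 1.44 to 0.753, 0.490 and 0.765 in the lacrimal gland and from 6.49, 6.19 and 6.91 to 26.5, 15.9 and 27.998 in the submandibular gland. Neither gland's treatments overlapped, and the changes were -0.82 ± 0.21 and 1.77 ± 0.21 with a difference of -2.58 ± 0.29 (adjusted p = 0.0135, 2.01e-04 and 7.85e-05).

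Promoters in the RefSeq table (GRCm38.p6) were searched for the steroid receptor half-site TGTTCT on both strands, which reads AGAACA on the other strand, and for the palindrome of AGAACA, any 3 bases and TGTTCT, which holds 2 half-sites. The search covered the 250 bases before each annotated start, with 1 chromosome left out. It held a promoter for 4994 of the 6155 genes with a tested probe. The palindrome was found in 3 of 32851 promoters (0.00913%), and Sgk1 held the only one among the 6390 promoters of genes with a tested probe. It began 189 bases before 1 of the 6 starts listed for Sgk1. The half-site was in 11.3% of the promoters of tested genes, in 14% of those of shared rises (13 of 93), 13% of shared falls (7 of 54), 15.7% (8 of 51) and 13.3% (4 of 30) of the opposite responses that were lower and higher in the lacrimal gland, and 8.11% to 11.8% of the single-gland responses. These are shares of promoters and not of genes, because a gene counts once for each of its starts. Sgk1, of the opposite responses, and Gne, of the shared falls, each had the half-site before more than 1 start. A match describes letters in this window and is not evidence of binding.

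The 200 bases before the start are given, 5′ to 3′ on the gene's strand, for Sgk1 and for 4 named genes with a half-site, 1 each from the shared rises, the shared falls, the lacrimal falls and the opposite responses, chosen after the matches were seen. Capitals mark the palindrome in Sgk1 and the half-site in the others.
Sgk1, chr10:21993690-21993889, plus strand: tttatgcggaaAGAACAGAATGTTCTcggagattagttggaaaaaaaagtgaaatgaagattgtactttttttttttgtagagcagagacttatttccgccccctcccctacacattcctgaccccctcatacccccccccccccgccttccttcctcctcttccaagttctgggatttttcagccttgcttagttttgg
Serpina1d, chr12:103773634-103773833, minus strand: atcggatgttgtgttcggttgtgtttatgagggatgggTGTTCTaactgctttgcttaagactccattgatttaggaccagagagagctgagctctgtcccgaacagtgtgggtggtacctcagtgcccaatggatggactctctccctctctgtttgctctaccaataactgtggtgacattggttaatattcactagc
Gne, chr4:44072718-44072917, minus strand: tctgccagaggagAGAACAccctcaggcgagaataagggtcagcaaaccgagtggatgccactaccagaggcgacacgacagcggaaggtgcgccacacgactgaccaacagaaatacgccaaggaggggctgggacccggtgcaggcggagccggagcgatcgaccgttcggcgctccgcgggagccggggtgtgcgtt
Phyh, chr2:4918796-4918995, plus strand: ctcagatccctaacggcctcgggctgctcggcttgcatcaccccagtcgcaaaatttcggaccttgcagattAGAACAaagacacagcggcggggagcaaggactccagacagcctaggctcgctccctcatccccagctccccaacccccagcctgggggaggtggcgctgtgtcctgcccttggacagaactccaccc
Ftsj1, chrX:8252407-8252606, minus strand: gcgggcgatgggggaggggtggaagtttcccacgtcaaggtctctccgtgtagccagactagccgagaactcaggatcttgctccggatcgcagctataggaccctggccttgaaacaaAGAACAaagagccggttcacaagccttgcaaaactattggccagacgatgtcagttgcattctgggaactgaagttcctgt

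Other genes that fell in the lacrimal gland and rose in the submandibular one encode secreted or membrane proteins. Hp, the haemoglobin-binding plasma protein haptoglobin, went from 358, 296 and 364 to 93.7, 113 and 121 in the lacrimal and from 2.43, 2.96 and 3.64 to 8.32, 6.06 and 7.58 in the submandibular gland. Pf4, platelet factor 4, went from 189, 201 and 173 to 37.9, 57.7 and 37.0 and from 1.52, 2.30 and 2.33 to 4.68, 3.47 and 3.88. Both stayed far brighter in the lacrimal gland on either treatment, and their differences were -2.85 ± 0.24 and -3.01 ± 0.28 (adjusted p = 7.76e-06 and 1.65e-05). Furin, a proprotein convertase, changed by -1.46 ± 0.25 and 1.05 ± 0.25, Lrg1, a leucine-rich plasma protein, by -0.89 ± 0.20 and 1.15 ± 0.20, and Cck, cholecystokinin, by -0.99 ± 0.17 and 0.91 ± 0.17. The complement inhibitor Cd59a changed by -0.84 ± 0.20 and 1.67 ± 0.20, the tight junction protein Cldn7 by -0.52 ± 0.11 and 0.73 ± 0.11, Tuft1 by -1.02 ± 0.17 and 0.88 ± 0.17, and Wfdc18, a protease inhibitor domain protein, by -0.57 ± 0.16 and 0.77 ± 0.16. Hprt, a purine salvage enzyme often taken as an unchanging reference, went from 9.37, 7.61 and 9.25 to 2.43, 1.60 and 1.32 in the lacrimal and from 2.62, 2.08 and 2.65 to 4.89, 5.10 and 5.53 in the submandibular gland, a difference of -3.19 ± 0.27 (adjusted p = 6.54e-06).

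Genes that rose in the lacrimal gland and fell in the submandibular one included 2 developmental transcription factors. Sox11 went from 1.42, 1.73 and 1.69 to 66.4, 21.6 and 27.9 in the lacrimal gland, where pool A was highest, and from 4.68, 5.13 and 4.97 to 1.67, 2.21 and 1.28 in the submandibular gland. Twist2 went from 1.46, 2.20 and 2.30 to 22.3, 23.1 and 22.6 and from 65.8, 59.6 and 58.0 to 27.7, 39.8 and 34.8. The differences were 5.63 ± 0.46 and 4.23 ± 0.24 (adjusted p = 5.81e-06 and 3.63e-07), and for Twist2 the glands were closer to each other on testosterone than on placebo. Ftsj1, a tRNA methyltransferase, changed by 3.61 ± 0.16 and -0.66 ± 0.16, Pxt1, a testis peroxisomal protein, by 2.89 ± 0.36 and -1.44 ± 0.36, and the chemokine receptor Ccr1 by 2.43 ± 0.19 and -0.91 ± 0.19. The guanylate cyclase receptor Gucy2c changed by 0.93 ± 0.12 and -1.11 ± 0.12, and Csprs by 1.64 ± 0.27 and -1.16 ± 0.27. Smaller opposite changes were those of the kinases Srpk1 (0.81 and -0.91) and Prpf4b (0.66 and -0.70), the kinetochore protein Dsn1 (0.88 and -0.86) and Hddc3 (0.86 and -0.85).

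Some genes of fat synthesis also moved in opposite directions. Scd1, the stearoyl-CoA desaturase, went from 3.38, 3.60 and 2.47 to 6.72, 8.57 and 10.0 in the lacrimal gland and from 23.6, 18.7 and 18.3 to 6.46, 12.7 and 5.96 in the submandibular gland, with no overlap of treatments in either, a difference of 2.67 ± 0.37 (adjusted p = 3.73e-04). Of 32 tested probes for fatty acid, glycerolipid and cholesterol synthesis, 6 rose and 2 fell in the lacrimal gland, 1 rose and 3 fell in the submandibular gland, and 9 had a called difference, 7 of them higher in the lacrimal gland. Over all tested probes these shares were 11.7%, 12%, 6.19% and 3.16%, and 8.22% for differences higher in the lacrimal gland. The 7 were 4 without lacrimal placebo pool C, and the 3 submandibular falls were 1 without any one of lacrimal placebo pools A, B and C, lacrimal testosterone pool B, submandibular placebo pool C and submandibular testosterone pools A, B and C. Thrsp, a regulator of lipogenesis, changed by 1.86 ± 0.36 in the lacrimal gland with -0.56 ± 0.36, not called, in the submandibular gland, and Dgat2, which makes triglycerides, by 1.03 ± 0.32 with -0.63 ± 0.32, not called. The difference for Dgat2 lost its call under 4 of 28 alternatives. In adipocyte genes, which could come from fat around the gland, 2 of 18 rose and 4 fell in the lacrimal and 1 fell in the submandibular gland. Their summed intensity was 134.3 to 242.5 in submandibular placebo and 114.8 to 117.5 in submandibular testosterone pools, and 48.54 to 50.91 and 38.45 to 41.17 in lacrimal ones. Skeletal muscle genes had 3 of 13 called, lower, in the submandibular gland and none in the lacrimal gland by limma, with sums of 32.21 to 55.71 and 22.82 to 29.73 in the submandibular placebo and testosterone pools. These 3 were 0 without submandibular placebo pool C and 1 without placebo pool A, testosterone pool B or testosterone pool C. The part of such tissue in the result was not tested.

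**Figure D4:**
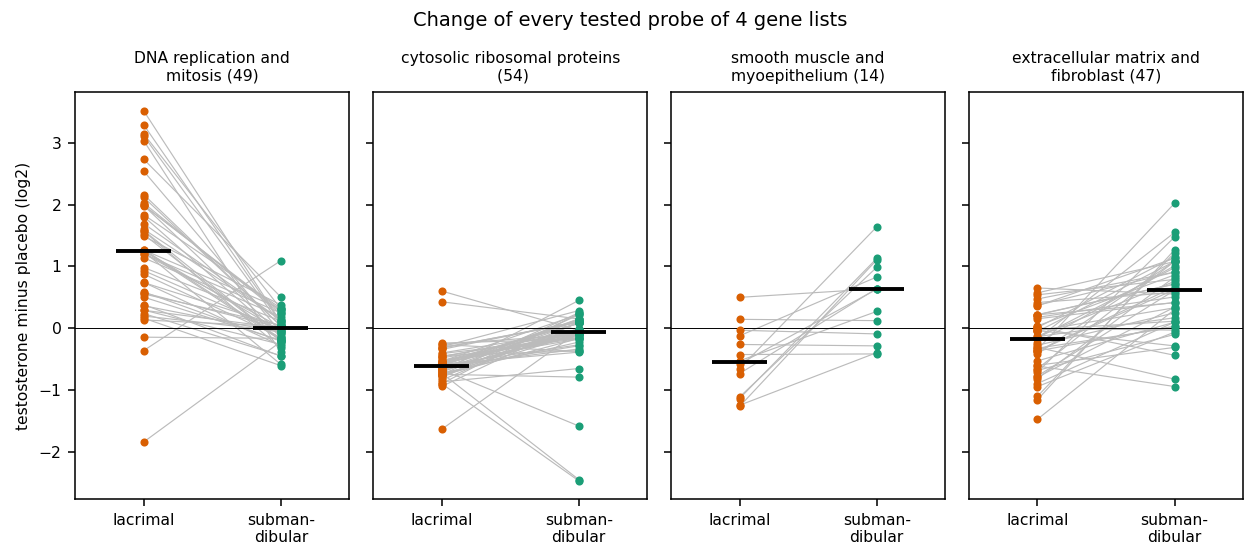
Each point is 1 tested probe, its log2 change (testosterone minus placebo) in the lacrimal gland (orange) joined to that in the submandibular gland (green), for 4 gene lists with the number of probes in brackets. Black bars are the medians: 1.26 and 0.00 for DNA replication and mitosis, -0.60 and -0.06 for ribosomal proteins, -0.55 and 0.64 for smooth muscle and myoepithelium, and -0.17 and 0.62 for matrix and fibroblast genes.

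Genes of DNA replication and mitosis rose in the lacrimal gland. Of 49 tested probes 38 rose and 1 fell there, with a median change of 1.26, whereas in the submandibular gland none rose, 1 fell and the median was 0.00. Here 11.7% of all tested probes were higher in the lacrimal gland and 6.19% in the submandibular one. The difference was called for 33, with 32 higher in the lacrimal gland, where 8.22% of all tested probes were called higher. Mki67, the proliferation marker, went from 0.406, 0.418 and 0.377 to 9.54, 6.37 and 6.07 in the lacrimal gland and was 0.862, 1.36 and 1.36 on placebo and 1.70, 1.16 and 1.04 on testosterone in the submandibular gland. Cdk1, the mitotic kinase, went from 0.679, 0.438 and 0.416 to 10.2, 6.31 and 5.51, against 0.753, 0.578 and 0.691 and 0.883, 0.700 and 0.623. Tyms, thymidylate synthase, changed by 3.11 ± 0.20 and 0.05 ± 0.20, and Birc5, survivin, by 3.03 ± 0.21 and -0.39 ± 0.21. On placebo the submandibular levels of these 4 genes were at or above the lacrimal ones, by the group means. The exceptions to the list were Orc1, a subunit of the origin recognition complex, which fell in the lacrimal gland (-1.84), and the DNA ligase Lig1, with 0.38 and -0.45, both called; they were named after their values were seen.

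Ribosomal protein genes were lower in the lacrimal gland. Of 54 tested probes 37 fell and 1 rose, with a median of -0.60, and in the submandibular gland none was called by limma, with a median of -0.06. The difference was called for 17 below and 1 above 0. Of all tested probes 12% fell in the lacrimal gland and 10.9% had a difference below 0. Rpl26 went from 30.2, 31.4 and 30.1 to 10.1, 10.6 and 8.54 in the lacrimal gland and from 11.6, 15.5 and 15.9 to 15.1, 12.2 and 13.9 in the submandibular gland. The list's median intensity was 122.5, against 2.456 over all tested probes with 1 symbol, and the brightest lacrimal probes were dimmer on testosterone arrays, as given above. With quantile normalization over the 12 arrays 18 fell and 2 rose in the lacrimal gland, the median was -0.36, 2 fell in the submandibular gland, and 7 differences below 0 and 2 above it were called. On the deposited scale the falls were 23 without lacrimal testosterone pool C or lacrimal placebo pool B. The 17 differences below 0 were 7 to 11 without any one of the lacrimal pools other than testosterone pool A, and 8 to 10 without submandibular placebo pool B, placebo pool C or testosterone pool A.

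Growth factors and secreted signals were called in both glands, with 4 members moving the same way in both and 1 in opposite ways. Of 33 tested probes 8 rose and 4 fell in the lacrimal gland, 11 rose and 3 fell in the submandibular gland, and 13 had a called difference. Over all tested probes these shares were 11.7%, 12%, 6.19%, 3.16% and 19.1%, so the lacrimal falls were at the background. Those 4 were 2 without lacrimal placebo pool A, placebo pool C or testosterone pool A, and 1 without testosterone pool C. Members named after their values were seen were Vegfa, vascular endothelial growth factor, with 0.49 in the lacrimal and 2.12, called, in the submandibular gland, Tgfb2 with -0.09 and 2.32, Fgf9 with 0.04 and 1.84, and Ccn1 with 0.07 and 2.66. All 4 had a called difference. Tgfb3 (1.22 and 1.12) and Fgf1 (0.93 and 1.08) rose in both glands.

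Enzymes that build glycans on secreted proteins and lipids had 6 rises and 3 falls in the lacrimal gland, and 8 rises and 3 falls in the submandibular gland, among 37 tested probes. The lacrimal counts were near the background of 11.7% and 12%, and those of the submandibular gland stood beside 6.19% and 3.16%. Both glands shared 3 of them in direction. Fut8, the core fucosyltransferase, went from 0.835, 0.532 and 0.523 to 10.8, 6.97 and 7.38 in the lacrimal gland and was 0.794, 0.514 and 0.660 and 0.542, 0.827 and 0.675 in the submandibular gland. P450 and detoxifying enzymes had 6 rises and 12 falls in the lacrimal and 7 rises and 3 falls in the submandibular gland among 48, and 20 called differences, 16 of them below 0. The 6 lacrimal rises were near the background of 11.7%, and the other shares over all tested probes were 12% for lacrimal falls, 6.19% and 3.16% in the submandibular gland, and 10.9% for differences below 0. Without lacrimal testosterone pool C those 16 were 10, and without submandibular testosterone pool A the 3 submandibular falls were 1. Cyp3a13 changed by 3.66 ± 0.20 and -0.30 ± 0.20, and the monooxygenase Fmo5 by 2.53 ± 0.29 and -0.25 ± 0.29.

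Of 23 tested probes of classical androgen-responsive genes 3 rose and 5 fell in the lacrimal gland, and 2 rose and 1 fell in the submandibular gland, with medians of -0.03 and 0.02. Over all tested probes the shares were 11.7%, 12%, 6.19% and 3.16%. The 5 lacrimal falls were 3 without any one of lacrimal placebo pools A and C, lacrimal testosterone pools A and B and submandibular testosterone pool B. Fkbp5 was the 1 shared and Sgk1 the 1 opposite member. Homer2, a scaffold protein, fell in the lacrimal gland (-1.63 ± 0.12), with -0.37 ± 0.12, not called, in the submandibular gland. For Spdef, an epithelial transcription factor, the difference was called at 1.99 ± 0.63 (adjusted p = 0.0459) with neither change called, and it lost the call under 14 of 28 alternatives.

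Secreted proteins of tears and saliva had 3 rises and 6 falls in the lacrimal gland and 1 of each in the submandibular gland, among 18, where 11.7%, 12%, 6.19% and 3.16% of all tested probes were called. The 6 falls were 2 without lacrimal placebo pool C. The list's median intensity was 19.7, against 2.456 over all tested probes with 1 gene symbol. The brightest lacrimal probes were dimmer on testosterone arrays, as given above. The part of this in the falls, that of the bright Lpo included, was not tested. Lpo, lactoperoxidase, was 532, 482 and 464 and 418, 371 and 319 in the lacrimal gland, a change of -0.42 ± 0.14 (adjusted p = 0.0428), and 166, 139 and 145 and 138, 151 and 134 in the submandibular gland, and no difference was called. Pigr, which carries IgA across the epithelium, changed by -1.14 ± 0.32 in the lacrimal gland with -0.17 ± 0.32, not called, in the submandibular gland, and its difference was called only without lacrimal testosterone pool C. For Ltf the difference was called at -1.44 ± 0.37, with neither change called. Aqp5, the apical water channel of acini, changed by -0.23 ± 0.12 and -0.24 ± 0.12, neither called, and the 95% interval of the difference was -0.37 to 0.38. Ion and water transport genes had 2 rises and 4 falls in the lacrimal and 5 rises and 1 fall in the submandibular gland among 26. The lacrimal counts were near the background of 11.7% and 12% and the submandibular fall near 3.16%, and 6.19% of all tested probes rose there. The 5 rises were 3 without submandibular placebo pool B, placebo pool C, testosterone pool A or testosterone pool C. The difference between glands was called below 0 for 7 of the 26 and above 0 for 1, against 10.9% and 8.22% of all tested probes. Those 7 were 5 to 9 on leaving out 1 pool. Kcnma1, the calcium-activated potassium channel, changed by -1.71 ± 0.15 and 0.34 ± 0.15, the chloride channel Clcn2 by -0.11 ± 0.20 and 1.08 ± 0.20, and the sodium pump subunit Atp1b3 by -1.34 ± 0.17 and 0.24 ± 0.17.

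Of 34 macrophage, dendritic cell and MHC class II probes, 2 rose and 7 fell in the lacrimal gland and 6 rose and none fell in the submandibular gland. Over all tested probes these shares were 11.7%, 12%, 6.19% and 3.16%, so the lacrimal rises were under the background. The 7 lacrimal falls were 1 to 3 without any one of the lacrimal pools other than testosterone pool A. Cd14, the lipopolysaccharide co-receptor, went from 5.55, 5.18 and 5.43 to 15.1, 12.6 and 18.3 in the submandibular gland and was 1.57, 0.935 and 1.27 and 1.46, 0.977 and 1.10 in the lacrimal gland. Of 34 interferon and MHC class I probes, 2 rose and 8 fell in the lacrimal gland and 2 rose in the submandibular gland, where 11.7%, 12% and 6.19% of all tested probes were called. The 8 falls were 4 without lacrimal placebo pool B, 5 without placebo pool C and 3 without testosterone pool C. B2m, beta-2-microglobulin, rose in both, from 59.6, 58.0 and 75.8 to 378, 314 and 261 and from 125, 131 and 133 to 258, 253 and 268, and more in the lacrimal gland (difference 1.29 ± 0.22). Chemokine, cytokine and complement genes had 6 rises and 8 falls in the lacrimal gland and 12 rises and 1 fall in the submandibular gland among 46. The lacrimal counts were near the background of 11.7% and 12%, while 6.19% rose and 3.16% fell in the submandibular gland over all tested probes. The 12 rises were 7 without submandibular testosterone pool A. Ccl28, a chemokine of mucosal epithelium that attracts IgA plasma cells, went from 11.9, 15.0 and 16.7 to 38.3, 39.7 and 43.0 in the lacrimal gland and was 9.04, 7.37 and 9.04 and 5.61, 6.01 and 7.49 in the submandibular gland, a difference of 1.87 ± 0.22 (adjusted p = 9.24e-05). Of 21 lymphocyte and plasma cell probes 2 rose and 3 fell in the lacrimal gland and none was called by limma in the submandibular gland, with medians of -0.08 in both. Pou2af1, a co-activator of B cells, changed by 2.63 ± 0.26 in the lacrimal gland, and Blnk, a B cell adaptor, by -0.74 ± 0.17, a difference that lost its call under 3 of 28 alternatives. Of 6 red cell probes 1 rose and 1 fell in the lacrimal gland, with a median of 0.04: Rhag, a red cell membrane protein, changed by 1.40 ± 0.12 and haemoglobin alpha, Hba-a1, by -1.38 ± 0.19. Summed over 6 red cell probes the lacrimal intensity was 154.9 to 214.9 on placebo and 86.92 to 99.44 on testosterone, and the part of blood in these results was not tested.

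**Figure D5:**
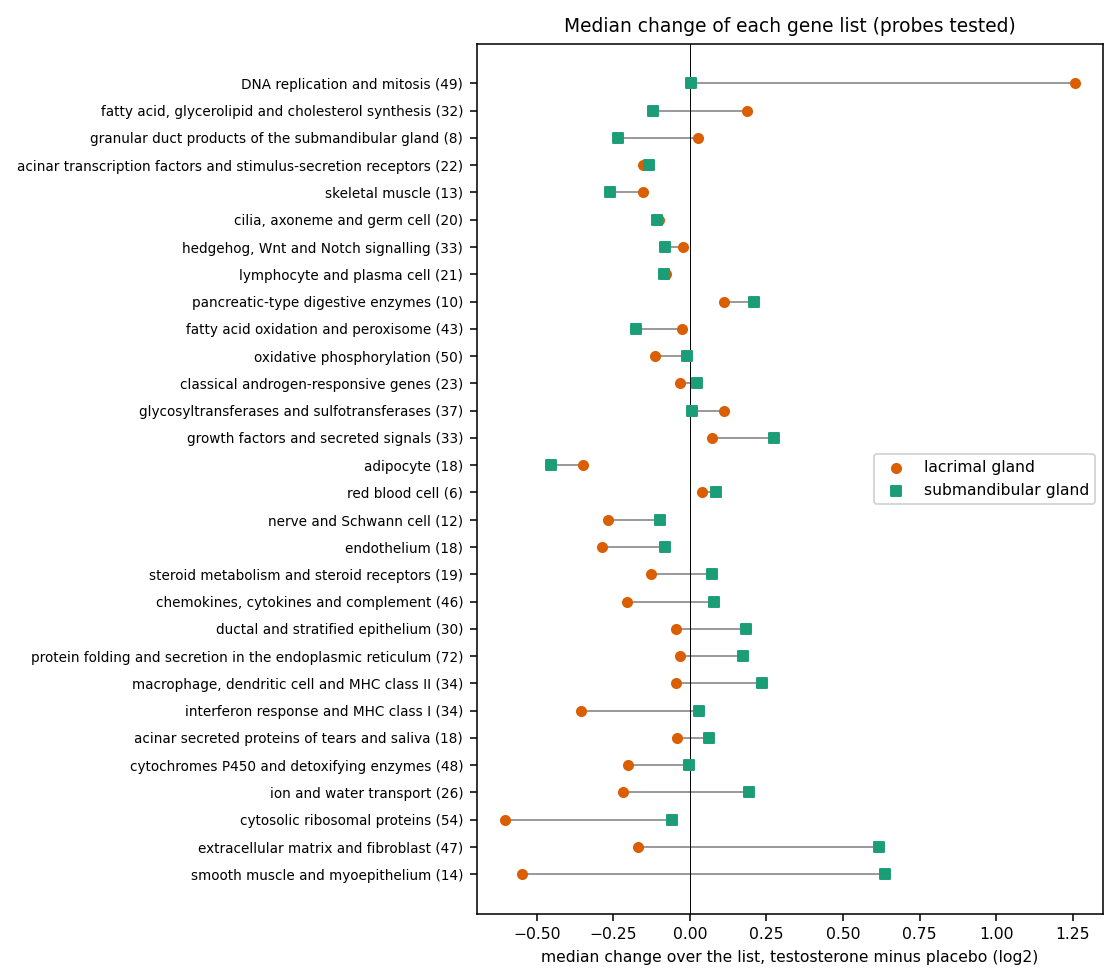
Median log2 change (testosterone minus placebo) over each of 30 gene lists, in the lacrimal gland (circles) and the submandibular gland (squares), ordered by the median difference between the glands; the number of tested probes is in brackets. DNA replication and mitosis stands at the top (1.26 and 0.00), and ribosomal proteins, matrix and fibroblast, and smooth muscle and myoepithelium at the bottom.

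Levels of the glands on placebo were set beside the responses, with no test, since a change and a placebo level share the placebo pools. Of the probes that fell in the lacrimal gland alone, 78.1% (318 of 407) had the higher placebo level in the lacrimal gland, against 56.6% of all tested probes. Of those that fell in the submandibular gland alone, 19.1% (13 of 68) had it in the lacrimal gland. Among rises in a single gland the share was 52.9% for lacrimal rises and 35% for submandibular rises. The 2 glands' levels were closer to each other on testosterone than on placebo for 43.4% of all tested probes, 55.5% of the lacrimal and 67.6% of the submandibular single-gland falls, 13.4% and 16.9% of the single-gland rises, 39.4% of the opposite responses higher in the lacrimal and 34.4% of those lower in the lacrimal gland. The median size of the gap between glands over all tested probes was 0.42 on placebo and 0.52 on testosterone.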

How the data were processed

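RNA of 12 pools was measured on arrays. Per the labels, pools A, B and C of a group were of different mice. The deposited value table holds the authors' processed values, 1 intensity per probe and array; the array type, scanner, background correction and scaling are not given in the sources used here. Probes with the code -1 were treated as missing (37 to 59 probes an array), and other values below 0 were set to 0. The offset of 0.2489 is the 10th percentile of all positive values. A probe was tested if at least 3 arrays were above their own 40th percentile and each group had at least 2 values, which left out 48 probes for missing values and 3362 dim ones. Of 10500 probes 8983 had 1 gene symbol, 1 several and 1516 none. Probes of multigene families may bind RNA of near-identical copies.

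Group means were fitted with limma 3.58.1 in R 4.3.3 (eBayes with trend, 8 residual degrees of freedom), and p-values were adjusted by Benjamini-Hochberg over all tested probes. The code of the fit was tested on simulated data with independent noise, which does not show whether the calls on these arrays hold. Deviations of same-lettered pools correlated between -0.066 and 0.1394 within a gland, so letters were not taken as pairs. Whether both glands came from the same mice is not stated. The p-values rest on the spread between pools within groups, taken over all 4 groups.

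Genes were named by rule: in each single-gland class the 8 with the largest difference, 12 shared rises, 8 shared falls and up to 12 opposite responses a direction with the largest smaller change, 4 shared responses with the largest difference, up to 4 members a gene list, and a fixed set of gland genes. The genes taken from single-gland classes needed treatment pools apart in the responding gland. The 12 shared rises and 8 shared falls needed this in both glands. Their lack of overlap was thus set by the rule. The comparison and its lists were chosen with earlier results of these data known. Alternatives to the offset, filter, scaling, model and samples were run.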

Additional observations from a re-analysis of the deposited data

Results flagged for a closer look

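For 133 of the 165 named genes the testosterone effect differed between the lacrimal and the submandibular gland by limma's test of the difference itself (adjusted p under 0.05). Of all 7090 tested probes 1357 (19.1%) had a called difference. Many genes were named because their difference was called or large, so the share among named genes follows from the naming rule. The values below are the lacrimal change minus the submandibular change on the log2 scale, 3 pools a group, and no explanation of them was tested. For 12 of the 133 the call was lost under at least 1 alternative, and these are named in the closing section.

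Among genes that rose in the lacrimal gland alone the difference was 8.89 for Nmu, 7.24 for Rsph6a, 6.06 for Ptch1, 5.61 for Cyp4a12a, 5.61 for Trpm5, 5.60 for Ddc, 5.28 for Stag3, 5.22 for Pgc and 4.94 for Chst2. Values were 3.98 for Acsbg1, 3.96 for Cyp3a13, 3.42 for Birc5, 3.42 for Mki67, 3.25 for Fut8, 3.20 for Cdk1, 3.12 for Bmp6, 3.06 for Tyms and 2.92 for Pgf. Then came 2.78 for Fst, 2.78 for Fmo5, 2.48 for Cidea, 2.42 for Thrsp, 2.30 for Pou2af1, 1.87 for Ccl28, 1.79 for Acaa2, 1.68 for Gzmb and 1.66 for Dgat2. Next were 1.40 for Fkbp11, 1.37 for Rhag, 1.07 for Htr1a, 0.92 for Cycs, 0.85 for Amy2a5 and 0.72 for Etv1.

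Among genes that fell in the lacrimal gland alone the difference was -10.79 for Pnliprp1, -4.51 for Pllp, -4.47 for Asgr1, -4.12 for Tenm3, -3.66 for Adh1, -3.22 for Retnla, -3.20 for Phyh, -3.15 for Snap91 and -2.46 for Hspa2. Values were -2.07 for Dmbt1, -2.06 for Kcnma1, -1.77 for Sparcl1, -1.73 for Hba-a1, -1.71 for Cldn8, -1.58 for Rpl26, -1.58 for Atp1b3, -1.33 for Ifit3 and -1.25 for Homer2. Then came -1.24 for H2-DMa, -1.23 for Ctsb, -1.14 for Rpl10a, -1.14 for Rps27, -1.04 for Acp5, -1.04 for Rpl27a, -0.92 for Blnk, -0.84 for Cox7c and -0.51 for Gzma.

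Among genes that rose in the submandibular gland alone the difference was -3.74 for Slc4a4, -3.42 for Klrg2, -3.32 for Tmem37, -3.04 for Sgca, -3.01 for A26c3, -2.91 for Egf, -2.76 for Kcne3, -2.66 for Nlrp4c and -2.64 for Hsd17b3. Values were -2.10 for Rsph9, -1.53 for Cd14, -1.34 for Wnt4, -1.33 for Egr2, -1.21 for Ddit3, -1.20 for Clcn2, -1.002 for Cnp, -0.98 for Ssr4 and -0.89 for Pmp22.

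Among genes that fell in the submandibular gland alone the difference was 2.69 for St3gal1, 2.20 for Psca, 2.04 for Tmem236, 1.96 for Mucl1, 1.85 for Fabp5, 1.77 for Slc37a2, 1.75 for Nat8f1, 1.70 for Hilpda and 1.16 for Cox7a1.

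Among genes that rose in both glands by unequal amounts the difference was -5.16 for Ptgds, -2.72 for Sult1e1, -2.50 for Cyp2b10, 2.09 for B4galt6, -1.98 for Smr2, -1.41 for St6galnac2, 1.29 for B2m, 1.25 for Mesp2 and 1.23 for Epha4.

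Among genes that fell in both glands by unequal amounts the difference was -1.44 for H4c9, -1.01 for Calu and -0.83 for Sema6c.

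Among genes that rose in the lacrimal and fell in the submandibular gland the difference was 5.63 for Sox11, 4.33 for Pxt1, 4.27 for Ftsj1, 4.23 for Twist2, 3.34 for Ccr1, 2.81 for Csprs, 2.67 for Scd1, 2.04 for Gucy2c and 1.75 for Dsn1. Values were 1.72 for Srpk1, 1.71 for Hddc3 and 1.37 for Prpf4b.

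Among genes that fell in the lacrimal and rose in the submandibular gland the difference was -3.19 for Hprt, -3.01 for Pf4, -2.85 for Hp, -2.58 for Sgk1, -2.51 for Cd59a, -2.51 for Furin, -2.42 for Mgp, -2.37 for Myh11 and -2.32 for Postn. Values were -2.29 for Tagln, -2.26 for Cnn1, -2.18 for Timp3, -2.10 for Acta2, -2.05 for Lrg1, -1.90 for Cck, -1.90 for Tuft1, -1.34 for Wfdc18 and -1.26 for Cldn7. Then came -1.14 for Hsd17b4.

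Among genes whose change was called in neither gland the difference was 1.99 for Spdef, -1.44 for Ltf and -1.33 for Sfrp1.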

How the results depend on the processing

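Of the 133 named differences between glands, 121 kept their call under every alternative run and 12 lost it in at least 1. Of 28 alternatives (27 for Sfrp1), Gzma, Sema6c and Spdef lost it under 14, Etv1 under 11 and H2-DMa under 10. Acaa2 lost it under 7, Cldn8 and Dgat2 under 4, Blnk under 3, Ifit3 under 2, and Cox7c and Sfrp1 under 1. Of the 32 uncalled differences 16 gained a call in at least 1 alternative. No called difference reversed, while the sign of 6 uncalled ones turned in at least 1 (Aqp5, Ces1e, Gne, Lpo, Ppm1k and Tmigd1). Many named genes were picked for large differences, so their calls do not stand for those of all probes. Of all 1357 called differences, 1008 to 1357 kept their call under an alternative. The count kept was 1008 without lacrimal testosterone pool C, 1022 without lacrimal placebo pool B and 1098 with the replicate letter as a block within each gland. With all 18 arrays in the fit, 1053 submandibular changes were called, 253 in the same way in both glands, 175 in opposite ways and 374 in the submandibular gland alone. With each gland fitted alone, 439 submandibular changes were called, and with array weights 182 opposite ones. Leaving out 1 pool at a time gave 1030 to 1494 differences, 1275 to 1792 lacrimal and 418 to 749 submandibular changes, 114 to 167 in the same way, 52 to 123 in opposite ways, 608 to 902 in the lacrimal gland alone and 167 to 272 in the submandibular gland alone. The replicate letter as a block within each gland gave 1176 differences, with 1510 lacrimal and 563 submandibular changes. By class there were 137 in the same way, 81 in opposite ways, 712 in the lacrimal gland and 205 in the submandibular one alone. The letter pairs within a gland correlated too weakly to pair the pools. A different, random block joined pools of the same treatment and letter across the glands (consensus correlation 0.0654). With that block 1499 differences were called. The cause of these shifts was not tested. The gene lists were recounted under each alternative, which was decided after the data were seen. The main limits are 3 pools a group, the unknown scaling of the deposited values and dim probes, whose changes the offset shrinks.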
